A study of Macaca mulatta with 10 samples.

Results

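Collagens are the triple-helical proteins of the extracellular matrix, and each alpha chain is the product of its own gene. The 38 collagen chain genes described here are all loci of a count table of 26813 loci whose name is a single symbol of the form COL, number, A, number. In all, 41 loci carried such a name. Where a symbol had more than 1 locus, the locus with the highest mean count was kept, which left 38 chains among 13196 genes that stand for a single symbol. The set held 10 fibrillar chains, 7 chains of basement membranes and 21 others. The others were 8 fibril-associated chains with interrupted triple helices (FACIT), 5 beaded-filament chains of the type VI family, 3 network-forming chains, 3 transmembrane chains and the 2 chains COL26A1 and COL28A1, which were left unclassed.

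The libraries are RNA-seq of the right testis of 10 wild type juvenile rhesus macaques. Vehicle was given to 3 animals, TP07, TP09 and TP11, aged 24, 14 and 15 months. Pulses of follicle-stimulating hormone together with luteinizing hormone (FSH+LH) were infused for 48 h in TP08, TP10 and TP12, aged 22, 14 and 15 months, and for 96 h in TP15, TP16, TP17 and TP18, all aged 14 months. The labels do not say how long vehicle was infused, and 1 vehicle group serves both times. Each library is a whole-testis extract of 1 animal, so fewer cells of a type and less RNA per cell cannot be told apart. The 96 h animals carry the highest animal numbers and hold no animal over 20 months. Anything else that went with those numbers cannot be told apart from the 96 h infusion.

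In the testis, type IV collagen lies in the basement membrane under the seminiferous epithelium and around vessels, and the fibrillar types I and III fill the tubule wall and the interstitium. Peritubular myoid cells and interstitial fibroblasts are known as the main makers of the fibrillar chains, and Sertoli cells contribute to the basement membrane. Before a collagen can be assembled, its chains are hydroxylated and folded in the endoplasmic reticulum, carried out in enlarged vesicles, trimmed of their propeptides and crosslinked. FSH acts on Sertoli cells and LH on Leydig cells.

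Libraries held 21824233 to 30375928 counts. Values below are CPM, counts scaled to an effective library of 1000000 counts by edgeR's TMM method, and each is a level of 1 library unless a group is named. A gene is called higher or lower where edgeR's quasi-likelihood test gave an adjusted p under 0.05 over all loci. Leydig markers rose as 5 of 6 genes at 48 h and 5 of 6 at 96 h. Their summed level was 196 to 346 CPM with vehicle, 1710 to 2113 at 48 h and 1256 to 1584 at 96 h, with no overlap between treated and vehicle libraries. All 6 Sertoli and all 6 germ cell markers were present in every library. Of all loci with a single symbol, 14.8% were called higher at 48 h and 17.2% at 96 h. The Leydig share was 83.3% at both times. Of the Sertoli markers 3 (50%) were called higher at 48 h and 4 (66.7%) at 96 h. Of 6 macrophage markers 2 (33.3%), CD14 and AIF1, were called higher at 96 h, and 0 at 48 h. The part of these markers in the collagen results was not tested.

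A few libraries were often at the edge of their group for collagens. How often this held over all loci was not computed. TP07, the 24-month vehicle animal, was the lowest vehicle library for 29 of 38 chains. Of the chains called at 96 h below, TP07 was the lowest for 8 of 8 higher and 4 of 8 lower ones. It was also the lowest for 6 of 6 stromal fibroblast, 6 of 6 macrophage, 5 of 5 endothelial, 5 of 6 Sertoli, 4 of 6 peritubular myoid, 3 of 6 Leydig and 1 of 6 germ cell markers. Within the 96 h group, TP15 and TP17 were both above TP16 and TP18 for 24 of 38 chains. Among the chains called at 96 h this held for 7 of 8 higher and 0 of 8 lower ones. It also held for 6 of 6 stromal fibroblast, 5 of 6 macrophage and 5 of 5 endothelial markers. The count was 3 of 6 for peritubular myoid, 2 of 6 for Leydig, 1 of 6 for germ cell and 0 of 6 for Sertoli markers. The part of these differences in the results below was not tested beyond the values given without single libraries.

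**Figure D1:**
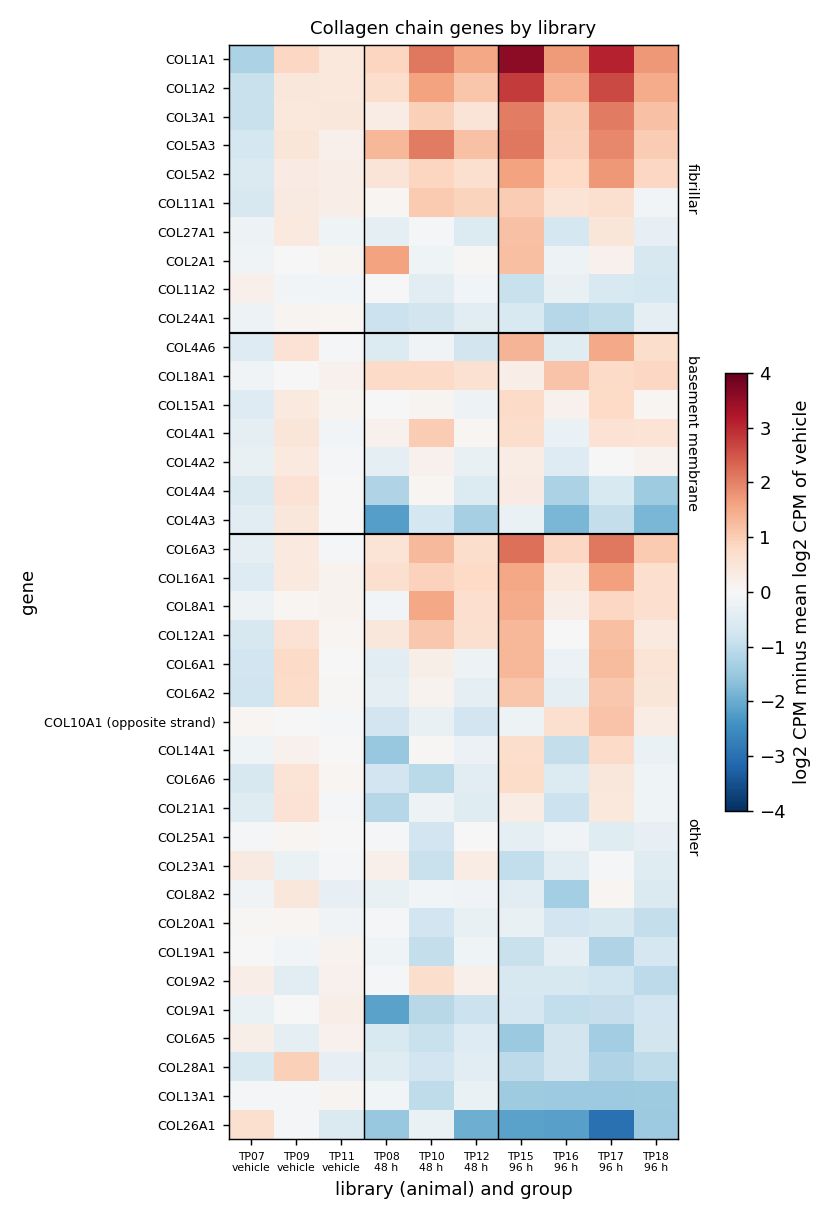
Collagen chain genes (rows, in blocks of fibrillar, basement membrane and other chains, ordered by their 96 h difference) in the 10 libraries (columns). Colour is the log2 CPM of a library minus the mean log2 CPM of the 3 vehicle libraries. The top fibrillar rows are reddest in TP15 and TP17 and the bottom rows of the other chains are blue in all 4 libraries at 96 h.

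At 96 h 5 fibrillar chains rose, among them both chains of type I collagen, and chains of several other types fell. Of the 38 chains, 8 were called higher, beside 17.2% of all loci with a single symbol, and 8 were called lower, beside 6.66%. The 8 higher genes were the fibrillar COL1A1, COL1A2, COL3A1, COL5A2 and COL5A3, the beaded-filament COL6A3, the FACIT chain COL16A1 and the basement membrane chain COL18A1. The 8 lower genes were the fibrillar COL24A1, the FACIT chains COL9A1, COL9A2 and COL19A1, the transmembrane COL13A1, the beaded-filament COL6A5, and COL26A1 and COL28A1. The share called higher in the set, 21.1%, was near that of all loci, and the share called lower was also 21.1%. With the age class as a block, or without both animals over 20 months, 0 of the 8 higher chains and 4 chains in the lower direction were called, and all 8 higher chains were above vehicle with a median log2 difference of 1.15 and 1.21.

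At 48 h far fewer chains passed the test. COL5A3 and COL18A1 were called higher, which is 5.26% of the set beside 14.8% of all loci. COL9A1 was called lower, which is 2.63% of the set beside 3.21% of all loci. The median log2 difference of the 38 chains from vehicle was -0.23 at 48 h and 0.25 at 96 h, beside 0.079 and 0.082 over all loci with a single symbol. Between 96 h and 48 h, 0 chains were called higher beside 1.11% of all loci, and 1 chain, COL9A2, was called lower beside 0.455%. In that comparison 9 of the 38 chains had an unadjusted p under 0.05, DESeq2 called 4 higher and 2 lower, and edgeR's exactTest called 1 higher and 2 lower. The 48 h and 96 h differences share the same 3 vehicle libraries.

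**Figure D2:**
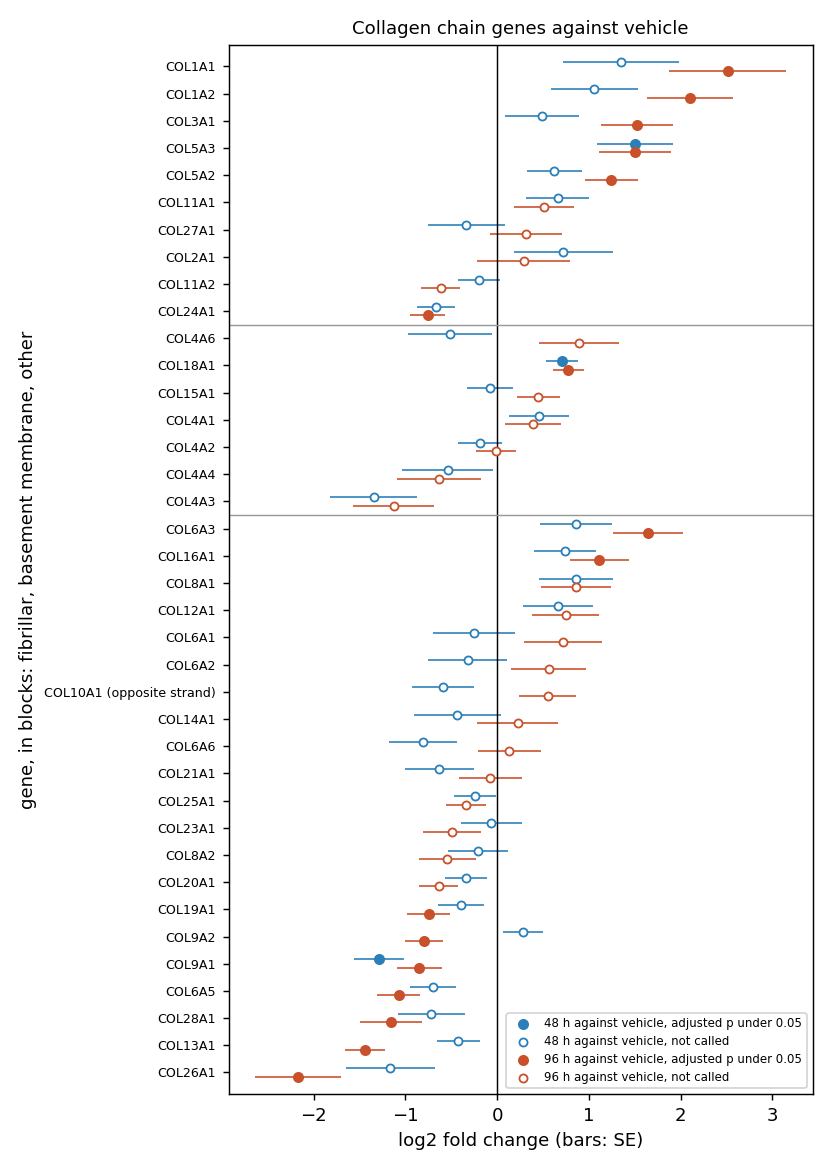
Log2 fold change (x axis, bars are SE) of each collagen chain gene (y axis) at 48 h (blue) and 96 h (red) against vehicle. Filled points have an adjusted p under 0.05 by edgeR's quasi-likelihood test. At 96 h the filled points lie to the right for 5 fibrillar chains and to the left for 7 of the other chains.

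Type I collagen pairs alpha 1 and alpha 2 chains and is the main tensile fibril of connective tissue. COL1A1 (chr16:39351524-39369520 of rheMac8, + strand, 50 merged exons) stood at 268, 1142 and 866 CPM in the vehicle animals TP07, TP09 and TP11. It stood at 1162, 2785 and 1858 CPM in the 48 h animals TP08, TP10 and TP12, and at 7676, 2091, 5400 and 2148 CPM in the 96 h animals TP15 to TP18. All treated libraries were above all vehicle libraries, and the 48 h and 96 h groups overlapped. COL1A1 rose 5.71-fold at 96 h (log2 2.51 ± 0.64 SE, adjusted p = 0.0262). At 48 h the log2 difference was 1.35 ± 0.63 with an adjusted p of 0.198.

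COL1A2 (chr3:119752170-119788876, + strand) had the same order of the 10 libraries from lowest to highest, TP07 to TP15. It measured 543, 1369 and 1351 CPM with vehicle, 1627, 3029 and 2148 CPM at 48 h, and 6951, 2640, 6304 and 2778 CPM at 96 h. Again no treated library fell into the vehicle range. COL1A2 rose 4.29-fold at 96 h (log2 2.102 ± 0.467, adjusted p = 0.016). Its log2 difference at 48 h was 1.06 ± 0.47 (adjusted p = 0.177). In the authors' deposited table COL1A2 at 48 h has a log2 fold change of 1.06 with an FDR of 0.0496.

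COL3A1, the single chain of type III collagen, which forms thin fibrils beside type I, lies tail to tail with COL5A2 on chromosome 12, with 14018 bp between them. COL3A1 (chr12:76381021-76422379) measured 805, 2003 and 2060 CPM with vehicle, 1814, 2862 and 2153 CPM at 48 h, and 6174, 2913, 6273 and 3330 CPM at 96 h. The 48 h range overlapped the vehicle range and the 96 h range did not. COL3A1 rose 2.88-fold at 96 h (log2 1.53 ± 0.39, adjusted p = 0.0275) and differed by log2 0.49 ± 0.40 at 48 h (adjusted p = 0.467).

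Type V collagen sits inside type I fibrils and limits their width. Its chain COL5A2 (chr12:76436398-76871545, - strand) measured 112, 211 and 203 CPM with vehicle, 243, 303 and 264 CPM at 48 h, and 512, 292, 561 and 297 CPM at 96 h. It rose 2.37-fold at 96 h (log2 1.24 ± 0.29, adjusted p = 0.0195), and its 48 h difference of log2 0.62 ± 0.30 did not pass the test (adjusted p = 0.215). COL5A3 (chr19:9966088-10018179), the third type V chain, was far less abundant. It measured 4, 9.14 and 7.53 CPM with vehicle, 16.4, 27.7 and 14.6 CPM at 48 h, and 28.2, 12.2, 24.5 and 13.2 CPM at 96 h. COL5A3 rose 2.84-fold at 48 h (log2 1.51 ± 0.41, adjusted p = 0.041) and 2.83-fold at 96 h (log2 1.502 ± 0.397, adjusted p = 0.0291). Its group means at 48 h and 96 h were 19.6 ± 7.14 and 19.5 ± 8.08 CPM (SD, n = 3 and 4).

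The other 5 fibrillar chains belong to cartilage-type or minor fibrils, and none of them was called higher. COL24A1 (chr1:85957875-86385053) measured 17.2, 21.6 and 21.1 CPM with vehicle, 10.9, 12 and 14.6 CPM at 48 h and 13.1, 9.01, 9.87 and 15.2 CPM at 96 h. It fell by 0.76 ± 0.19 on the log2 scale at 96 h (adjusted p = 0.0231), and at 48 h, where the groups also did not overlap, the log2 difference was -0.67 ± 0.21 (adjusted p = 0.0597). COL2A1, COL11A1, COL11A2 and COL27A1 were called at neither time, and their directions differed. The log2 differences at 48 h and 96 h were 0.66 ± 0.34 and 0.51 ± 0.325 for COL11A1, and 0.72 and 0.29 for COL2A1. They were -0.34 and 0.315 for COL27A1, and -0.20 and -0.615 for COL11A2. COL2A1, the chain of cartilage type II collagen, lay between 5.49 and 9.62 CPM in 8 libraries and at 26.1 CPM in TP08 and 19.5 CPM in TP15. Among 4 listed markers of cartilage and bone cells, 1 was measured, ACAN, the cartilage proteoglycan aggrecan, at 1.87 to 5.23 CPM over the 10 libraries.

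**Figure D3:**
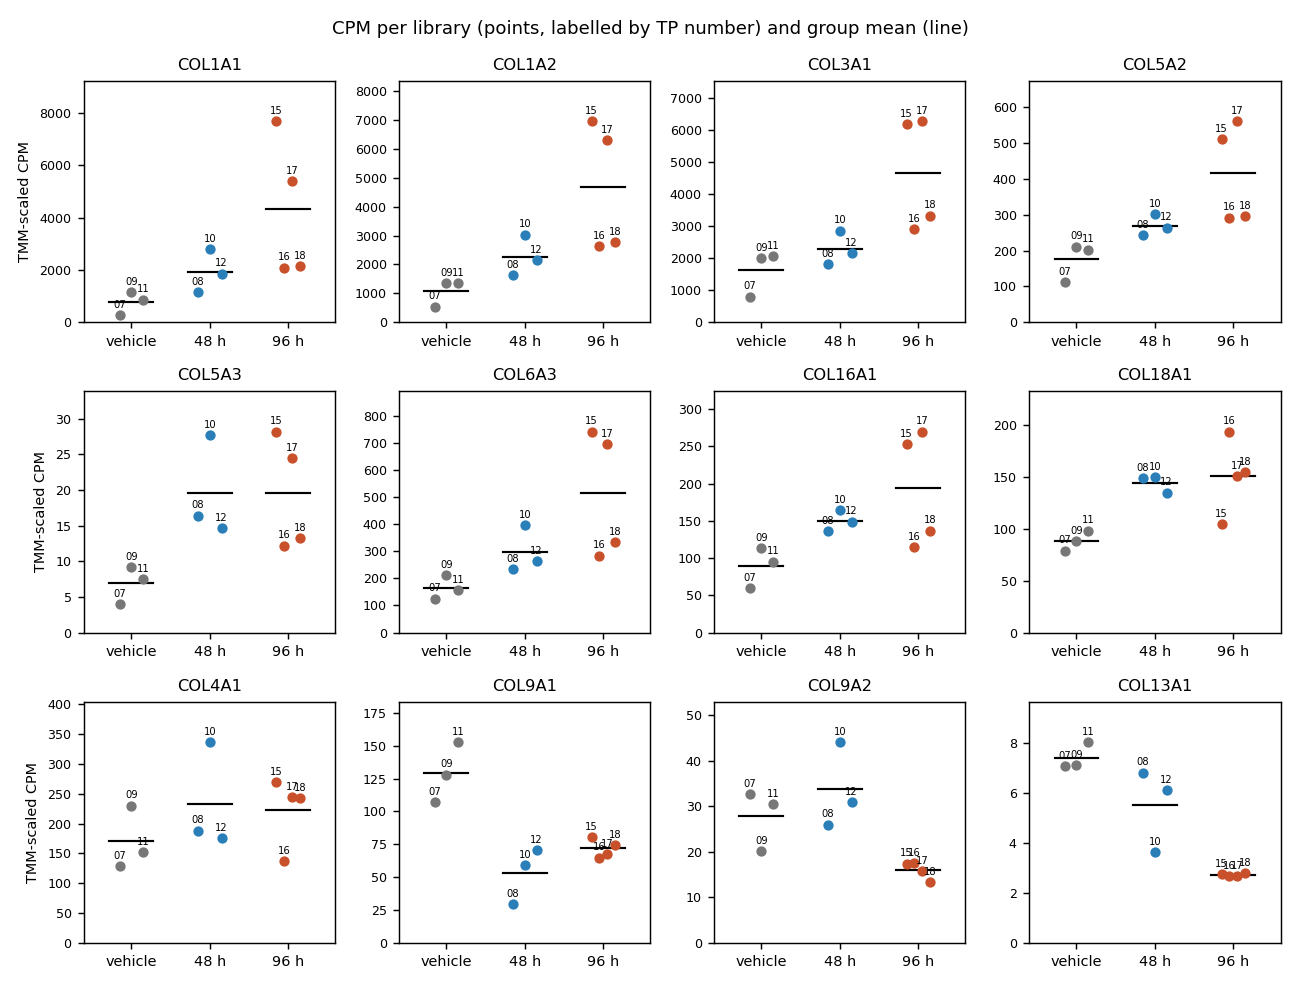
TMM-scaled CPM (y axes from 0) of 12 collagen chain genes in vehicle, 48 h and 96 h libraries. Points are libraries, labelled by the number of the animal, and lines are group means. In the 7 panels from COL1A1 to COL16A1, TP15 and TP17 are the highest libraries at 96 h. For COL13A1, whose lowest count over the libraries was 53, the 4 libraries at 96 h lie between 2.68 and 2.78 CPM.

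The 3 abundant interstitial chains COL1A1, COL1A2 and COL3A1 set the total. Together they took 0.171% to 0.479% of the library's counts with vehicle, 0.456% to 0.864% at 48 h and 0.763% to 1.95% at 96 h. The other 35 chains took 0.19% to 0.349%, 0.225% to 0.322% and 0.241% to 0.46% in the same groups, with overlap throughout. Per library, the 3 chains made up 47.4%, 57.9% and 62.9% of collagen counts with vehicle, 66.9%, 72.9% and 71.3% at 48 h, and 80.9%, 76%, 79% and 72.8% at 96 h. All treated libraries were above all vehicle libraries in that share, which is computed within a library and does not depend on its scaling. Per kb of exon, the order of the mean levels with vehicle was COL1A2 at 215 CPM per kb, COL3A1 at 192 and COL1A1 at 122, followed by COL6A1 at 66 and COL15A1 at 54.9. At 96 h the order was COL1A2 at 921 CPM per kb, COL1A1 at 694 and COL3A1 at 553. Per kb, the ranges of the libraries of these 3 genes overlapped between genes within each group. Within each library, however, COL1A2 was the highest of the 3. The ratio to COL1A2 was 0.4 to 0.897 for COL1A1 and 0.533 to 0.915 for COL3A1. The order of COL1A1 and COL3A1 varied between libraries.

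Stromal markers moved with the fibrillar chains in part. The summed level of 6 of 6 stromal fibroblast markers was 1654 to 2337 CPM with vehicle, 1583 to 2134 at 48 h and 1855 to 4392 at 96 h. Most of this sum was DCN, with 1270 of 1654 CPM in TP07 and 3049 of 4392 in TP17. At 96 h 2 of the 6 (33.3%), PDGFRA and MFAP5, were called higher, and 0 at 48 h. Of all loci with a single symbol, 14.8% were called higher at 48 h and 17.2% at 96 h. The 6 peritubular myoid markers summed to 353 to 392 CPM with vehicle. They summed to 569 to 872 at 48 h and 495 to 1129 at 96 h, without overlap with vehicle. Most of this sum was MYH11, with 284 of 353 CPM in TP07 and 873 of 1129 in TP15, and MYH11 was not called. Of the 6 myoid markers, 3 (50%) were called higher at 48 h and 4 (66.7%) at 96 h. None of these markers was at 0 in any library. DCN, which encodes the fibroblast proteoglycan decorin, stood at 1270, 1770 and 1481 CPM with vehicle, 1116, 1541 and 1202 at 48 h and 2560, 1329, 3049 and 1862 at 96 h, and was not called.

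COL1A1 was compared with stromal and myoid markers within each library, and its ratio depended on the marker. The ratio of COL1A1 to DCN, both per kb of exon, was 0.0962, 0.295 and 0.267 with vehicle. It was 0.476, 0.825 and 0.706 at 48 h and 1.37, 0.719, 0.809 and 0.527 at 96 h, with no overlap with vehicle at either time. The log2 difference of the ratio was 1.73 ± 0.57 at 48 h and 2.03 ± 0.59 at 96 h (SE). The ratio of COL1A1 to PDGFRA, a receptor of mesenchymal cells, differed by log2 1.44 ± 0.61 and 1.80 ± 0.60, also without overlap. Described without a test over all 12 stromal and myoid markers, the ratio lay above vehicle without overlap for 7 at 48 h and 8 at 96 h. It lay below vehicle for 2 at 48 h, MFAP5 and ACTA2, and overlapped for the others. COL1A1 itself lay above every vehicle library at both times, so its ratio to a gene that changes little is also higher. How many of all loci would give such a ratio was not computed. The ratio of COL1A1 to ACTA2, the smooth muscle actin of myoid cells, was 6.02, 15.2 and 9.64 with vehicle, 2.01, 5.88 and 5.01 at 48 h and 19, 5.15, 11.8 and 12 at 96 h. With a test, 12 ratios of genes were compared over 3 contrasts, which gives 36 two-sided exact permutation tests, and the pairs were chosen after values had been seen. With 3 against 3 libraries such a test cannot go below 0.1 and with 3 against 4 not below 0.0571, and the smallest adjusted p of the 36 was 0.18, so no ratio passed.

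Of the fibrillar chains, COL3A1 and COL5A2 were set against COL1A2, and COL1A1 against its partner COL1A2. The ratio of COL3A1 to COL1A2 per kb of exon was 0.89, 0.878 and 0.915 with vehicle, 0.669, 0.567 and 0.602 at 48 h, and 0.533, 0.662, 0.597 and 0.719 at 96 h. The vehicle libraries, TP07 included, lay close together and above every treated library. The log2 difference was -0.55 ± 0.07 at 48 h and -0.52 ± 0.10 at 96 h, with exact permutation p-values of 0.1 and 0.0571, the smallest the design allows. The ratio of COL5A2 to COL1A2 was also lower without overlap, by log2 -0.46 ± 0.22 at 48 h and -0.85 ± 0.20 at 96 h. The ratio of COL1A1 to COL1A2, which pair in type I collagen, was 0.4 to 0.678 with vehicle, 0.58 to 0.747 at 48 h and 0.628 to 0.897 at 96 h, with overlap at both times.

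**Figure D4:**
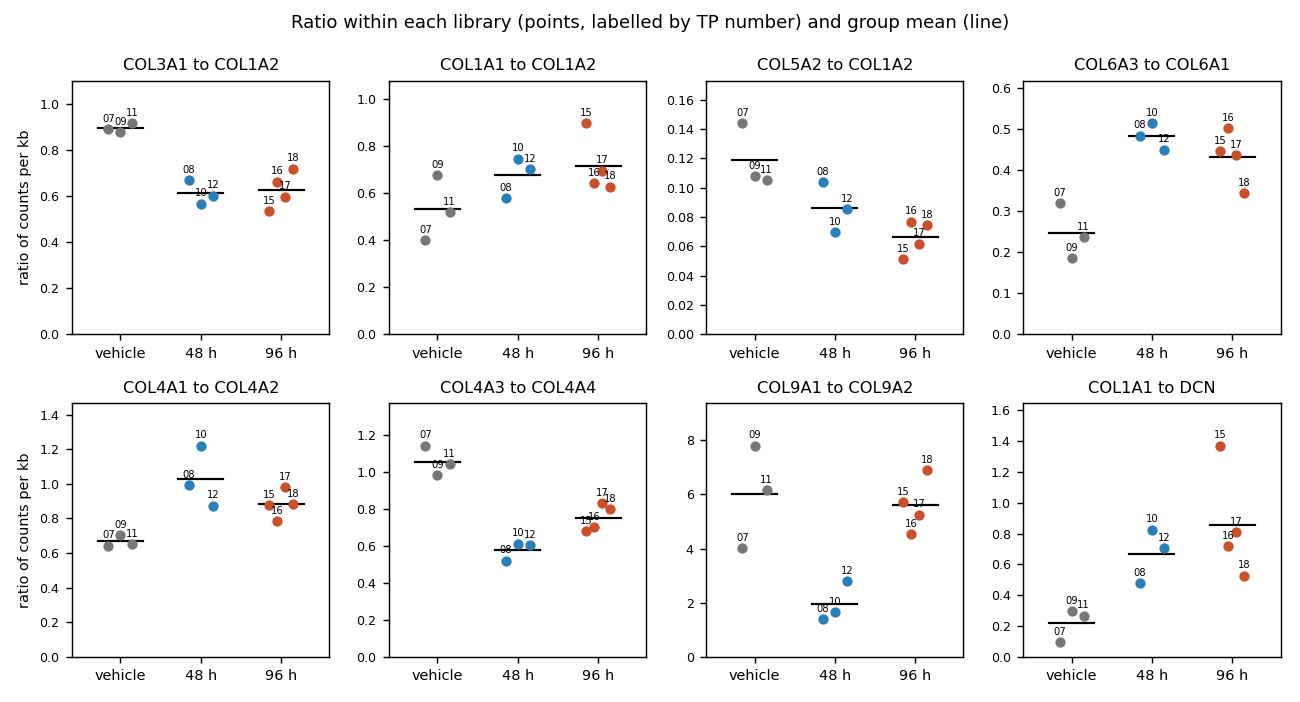
Ratio of the counts per kb of exon of 8 pairs of genes within each library (y axes from 0). Points are libraries, labelled by the number of the animal, and lines are group means. COL3A1 to COL1A2, COL4A3 to COL4A4 and COL5A2 to COL1A2 lie lower in all treated libraries, and COL4A1 to COL4A2, COL6A3 to COL6A1 and COL1A1 to DCN lie higher.

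Of the 7 basement membrane chains, COL18A1 was the only one called. Their summed share of counts was 0.0744% to 0.127% with vehicle, 0.0863% to 0.119% at 48 h and 0.0921% to 0.131% at 96 h. It makes up 14.3% of the class, near the 14.8% and 17.2% of all loci called higher at 48 h and 96 h. No chain of the class was called lower, and 2 of 7 had an unadjusted p under 0.05 at either time. COL18A1 (chr3:1225165-1260248, - strand) encodes the chain whose C-terminal piece is endostatin. It measured 79.2, 88 and 98.4 CPM with vehicle, 149, 150 and 135 CPM at 48 h, and 105, 194, 151 and 155 CPM at 96 h. COL18A1 rose 1.63-fold at 48 h (log2 0.71 ± 0.18, adjusted p = 0.0265) and 1.71-fold at 96 h (log2 0.77 ± 0.17, adjusted p = 0.0124). TP15 was the lowest 96 h library for COL18A1.

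COL4A1 and COL4A2 form the common type IV network of nearly all basement membranes and start head to head on chromosome 17, where their spans overlap by 557 bp. COL4A1 measured 129, 230 and 152 CPM with vehicle, 188, 337 and 175 at 48 h and 269, 137, 244 and 242 at 96 h. COL4A2 measured 221, 361 and 258 CPM, then 210, 306 and 221, then 339, 193, 275 and 302. Neither gene was called and all groups overlapped. Their ratio per kb, however, was 0.643, 0.705 and 0.652 with vehicle, 0.99, 1.22 and 0.874 at 48 h, and 0.877, 0.786, 0.979 and 0.884 at 96 h. The ratio lay higher in every treated library, by log2 0.61 ± 0.15 at 48 h and 0.40 ± 0.08 at 96 h (exact permutation p = 0.1 and 0.0571).

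The COL4A3 and COL4A4 chains belong to the type IV network best known from the glomerulus of the kidney. COL4A3 measured 9.25, 17.6 and 12.7 CPM with vehicle, 2.77, 7.79 and 5.02 at 48 h and 10.5, 3.55, 6.63 and 3.6 at 96 h. Its log2 difference was -1.35 ± 0.48 at 48 h (adjusted p = 0.0944) and -1.13 ± 0.44 at 96 h (adjusted p = 0.0989), so it was not called. In the authors' deposited table, COL4A3 has an FDR of 0.0277 at 48 h and 0.0405 at 96 h. COL4A4 differed by log2 -0.54 ± 0.50 and -0.63 ± 0.46, with overlap. The ratio of COL4A3 to COL4A4 was 0.98 to 1.14 with vehicle, 0.52 to 0.611 at 48 h and 0.678 to 0.828 at 96 h. It had no overlap among the 3 groups, and the 96 h values lay between the others. COL15A1, a chain of basement membrane zones and the most abundant of this class per kb, measured 225 to 418 CPM with vehicle, 277 to 343 at 48 h and 334 to 555 at 96 h, and was not called.

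COL4A6 (chrX:102183411-102480545, - strand) measured 28.4, 59.6 and 38.5 CPM with vehicle, 27.7, 36.7 and 24.3 CPM at 48 h, and 104, 28.8, 115 and 64.9 CPM at 96 h. It was not called at either time. Its log2 difference of 96 h from 48 h was 1.405 ± 0.442 (adjusted p = 0.141 by edgeR's quasi-likelihood test). Its partner COL4A5, which starts 1301 bp away on the other strand, is named only jointly with another gene in the table and is outside the rule. COL4A5 rose 2.31-fold at 96 h (log2 1.21 ± 0.34, adjusted p = 0.0369).

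Type VI collagen forms beaded filaments around cells from 3 main chains. COL6A3 (chr12:120047886-120140963, - strand), the largest of them, measured 125, 211 and 157 CPM with vehicle, 234, 397 and 262 CPM at 48 h, and 741, 284, 696 and 333 CPM at 96 h. It rose 3.13-fold at 96 h (log2 1.65 ± 0.38, adjusted p = 0.0185), with all treated libraries above vehicle. COL6A1 measured 145, 420 and 245 CPM, then 179, 287 and 216, then 616, 210, 591 and 359, and COL6A2 kept close to it in every library. Neither COL6A1 nor COL6A2 was called, with log2 differences at 96 h of 0.72 ± 0.43 and 0.56 ± 0.41.

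The ratio of COL6A1 to COL6A2 per kb was 1.17 to 1.26 with vehicle, 1.18 to 1.38 at 48 h and 1.29 to 1.41 at 96 h. The 96 h libraries lay above vehicle without overlap, by log2 0.14 ± 0.04 (exact permutation p = 0.0571). The ratio of COL6A3 to COL6A1 was 0.186 to 0.32 with vehicle, 0.451 to 0.515 at 48 h and 0.345 to 0.504 at 96 h. It lay higher in every treated library, by log2 1.00 ± 0.23 and 0.83 ± 0.25 (exact permutation p = 0.1 and 0.0571). COL6A5, a chain that resembles COL6A3, measured 16.2, 10.5 and 15.5 CPM with vehicle, 9, 7.43 and 9.64 at 48 h, and 4.89, 8.25, 5.31 and 8.27 at 96 h. COL6A5 fell by 1.07 ± 0.24 on the log2 scale at 96 h (adjusted p = 0.0121). Its neighbour COL6A6, 30214 bp away on the same strand, differed by log2 0.13 ± 0.34 at that time and was not called.

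FACIT chains sit on the surface of fibrils. Of the 8, 1 was called higher and 3 lower at 96 h, which is 12.5% and 37.5%, beside 17.2% and 6.66% of all loci. COL16A1 (chr1:30705352-30756988) measured 60, 113 and 95.3 CPM with vehicle, 136, 164 and 149 CPM at 48 h, and 253, 115, 270 and 137 CPM at 96 h. The lowest 96 h library was just above the highest vehicle library. COL16A1 rose 2.17-fold at 96 h (log2 1.11 ± 0.32, adjusted p = 0.0423). COL12A1 and COL14A1, which bind type I fibrils, were called at neither time, with log2 differences of 0.75 ± 0.37 and 0.22 ± 0.44 at 96 h.

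Type IX collagen decorates type II fibrils in cartilage, and its COL9A1 chain was the only collagen gene called lower at 48 h. COL9A1 (chr4:68336975-68516239, - strand) measured 107, 128 and 153 CPM with vehicle, 29.3, 59.1 and 70.7 CPM at 48 h, and 80.6, 64.8, 67.4 and 74.6 CPM at 96 h. Every treated library was below every vehicle library. It fell by 1.29 ± 0.27 on the log2 scale at 48 h (adjusted p = 0.0134) and by 0.85 ± 0.25 at 96 h (adjusted p = 0.041). Per kb of exon its vehicle mean of 26.8 CPM was between those of COL4A2 and COL4A1.

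COL9A2 (chr1:39623722-39643000), which joins COL9A1 in the same trimer, took another course. It measured 32.7, 20.2 and 30.5 CPM with vehicle, 26, 44.2 and 31 CPM at 48 h, and 17.4, 17.5, 15.8 and 13.3 CPM at 96 h. COL9A2 fell by 0.80 ± 0.21 on the log2 scale against vehicle (adjusted p = 0.0242) and by 1.08 ± 0.21 against 48 h (adjusted p = 0.036). The ratio of COL9A1 to COL9A2 per kb was 4.03, 7.8 and 6.17 with vehicle, 1.38, 1.65 and 2.81 at 48 h and 5.71, 4.54, 5.25 and 6.89 at 96 h. The 48 h libraries lay below both other groups, by log2 -1.64 ± 0.41 against vehicle. The third type IX chain is not analysed here. COL19A1, which lies tail to tail with COL9A1 at a distance of 965 bp, fell by 0.75 ± 0.23 at 96 h (adjusted p = 0.0493).

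COL13A1, a transmembrane chain of cell adhesion sites, was read from few counts, 53 in its lowest library and 139 on average. The SD of its 96 h group was 0.0534 CPM (n = 4). With counts this low, sampling noise limits what that SD says about the animals. COL13A1 (chr9:62481515-62640421, - strand) measured 7.07, 7.11 and 8.04 CPM with vehicle, 6.81, 3.64 and 6.12 CPM at 48 h, and 2.76, 2.68, 2.68 and 2.78 CPM at 96 h. It fell by 1.44 ± 0.22 on the log2 scale at 96 h (adjusted p = 0.00205). The transmembrane COL23A1 and COL25A1 were not called. COL26A1, which was described from testis and ovary, measured 10.1, 6.15 and 4.26 CPM with vehicle, 2.23, 5.3 and 1.65 at 48 h, and 1.45, 1.41, 0.81 and 2.35 at 96 h. COL26A1 fell by 2.17 ± 0.47 at 96 h (adjusted p = 0.0114). COL28A1, a chain with von Willebrand factor domains, fell by 1.16 ± 0.34 at 96 h (adjusted p = 0.0392), from 3.2, 9.54 and 3.91 CPM with vehicle to 2.37, 2.97, 2.13 and 2.43 CPM, and TP09 was its highest library.

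Germ cell markers were lower beside these minor chains. Called lower were 2 of 6 (33.3%) at 48 h and 5 of 6 (83.3%) at 96 h, beside 3.21% and 6.66% of all loci. The summed level of these markers was 253 to 320 CPM with vehicle, 150 to 194 at 48 h and 135 to 196 at 96 h. None of them was at 0. The part of this in the lower collagen chains was not tested.

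Counted by library ranges alone, 7 of 38 chains at 48 h had every treated library above every vehicle library, beside 29.2% of all loci with a single symbol, and 7 had every one below, beside 12.8%. At 96 h the counts were 9 above, beside 24.8%, and 11 below, beside 12.7%. Within the 3 pairs of vehicle and 48 h animals of like age, 12 chains were higher at 48 h in all 3 pairs, beside 40.3% of all loci with a single symbol, and 17 were lower in all 3, beside 23.2%. The vehicle group holds 1 animal of the age of the 96 h animals, TP09. All 4 libraries at 96 h were above TP09 for 9 of the 38 chains, beside 38.1% of all loci, and below it for 16, beside 20.8%.

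The 96 h calls depended on single libraries. Without TP07, 1 chain, COL1A2, was called higher at 96 h and 4 were called lower. All 8 higher chains were still above vehicle, by log2 0.70 to 2.11 with a median of 1.21, against 1.51 with TP07. Without TP15, or without TP17, 4 of the 8 higher chains were called, COL1A2, COL5A2, COL6A3 and COL18A1 in both cases. Without TP11, 3 were called higher. The count of lower chains was 4 without TP09 or TP18 and 3 without TP11 or TP17. The 48 h calls of COL5A3 and COL18A1 were lost without TP07, TP09 or any single 48 h library, and that of COL5A3 also without TP11. COL9A1 at 48 h and COL13A1 at 96 h were called under each of 20 other settings, which include the omission of each library. The 96 h call of COL16A1 was lost under 13 of these settings, that of COL19A1 under 12 and that of COL9A1 under 8. The other 96 h calls against vehicle were lost under 0 to 7.

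Genes that make collagen chains into fibrils were examined as a group, as 32 of 37 listed genes were measured. At 48 h 10 were called higher and 1 lower, which is 31.2% and 3.12% of them, and at 96 h 17 were called higher and 2 lower, which is 53.1% and 6.25%. Of all loci with a single symbol, 14.8% and 3.21% were called at 48 h and 17.2% and 6.66% at 96 h, so the shares called lower were near those of all loci. The median log2 difference was 0.45 and 0.56. At 48 h the higher genes were 7 of 16 modifying enzymes and chaperones and 3 of 4 secretion genes, with 0 of 7 for propeptide cleavage and 0 of 5 for crosslinking. In those 2 groups, 1 and 2 genes had an unadjusted p under 0.05 at 48 h. At 96 h, 3 of 7 genes of propeptide cleavage (ADAMTS2, BMP1 and TLL1) and 3 of 5 of crosslinking (LOX, LOXL1 and LOXL3) were called higher as well. No synthesis gene was called between 96 h and 48 h by edgeR's quasi-likelihood test, with 5 at an unadjusted p under 0.05. In that comparison DESeq2 called 2 synthesis genes higher and 0 lower. The count of higher synthesis genes was 8 at either time without TP07. At 96 h it was 10 without TP09, TP11, TP15 or TP17, 7 with the age class as a block, and 9 without both animals over 20 months, where it was 5 at 48 h.

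PLOD1, a lysyl hydroxylase of collagen, measured 24.6, 33.1 and 28.6 CPM with vehicle, 77.4, 72.8 and 63.4 CPM at 48 h, and 104, 82.5, 88.2 and 81.2 CPM at 96 h. It rose by log2 1.31 ± 0.14 at 48 h (adjusted p = 0.000502) and 1.63 ± 0.13 at 96 h (adjusted p = 0.000125), and every treated library was above every vehicle library. P4HB, the disulfide isomerase subunit of prolyl hydroxylase, measured 188 to 208 CPM with vehicle, 355 to 376 at 48 h and 293 to 372 at 96 h. SERPINH1, the collagen chaperone HSP47, measured 168 to 184 CPM with vehicle, 305 to 330 at 48 h and 222 to 410 at 96 h. P4HB and SERPINH1 rose by log2 0.86 ± 0.10 and 0.86 ± 0.18 at 48 h (adjusted p = 0.00097 and 0.0119).

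Other synthesis genes that rose at 48 h were PPIB (log2 0.74 ± 0.10) and FKBP14 (1.25 ± 0.21), both prolyl isomerases, P3H1 (0.73 ± 0.15), a prolyl 3-hydroxylase, and SEC24D (0.96 ± 0.17), a coat protein of the vesicles that carry procollagen. CREB3L1, a transcription factor of the secretory pathway, measured 2.34, 6.35 and 4.78 CPM with vehicle, 13.2, 21.8 and 17.8 at 48 h and 49.7, 18, 42.1 and 17.5 at 96 h. CREB3L1 rose by log2 1.97 ± 0.49 and 2.83 ± 0.48, and TP15 and TP17 were again the highest 96 h libraries. Not every hydroxylase rose. P4HA2, a catalytic subunit of prolyl hydroxylase, fell by 0.83 ± 0.23 at 48 h (adjusted p = 0.0452) and by 0.99 ± 0.22 at 96 h (adjusted p = 0.0136), and P4HA1 differed by 0.15 ± 0.12 at 96 h and was not called. The cells in which these changes took place cannot be read from whole testis.

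**Figure D5:**
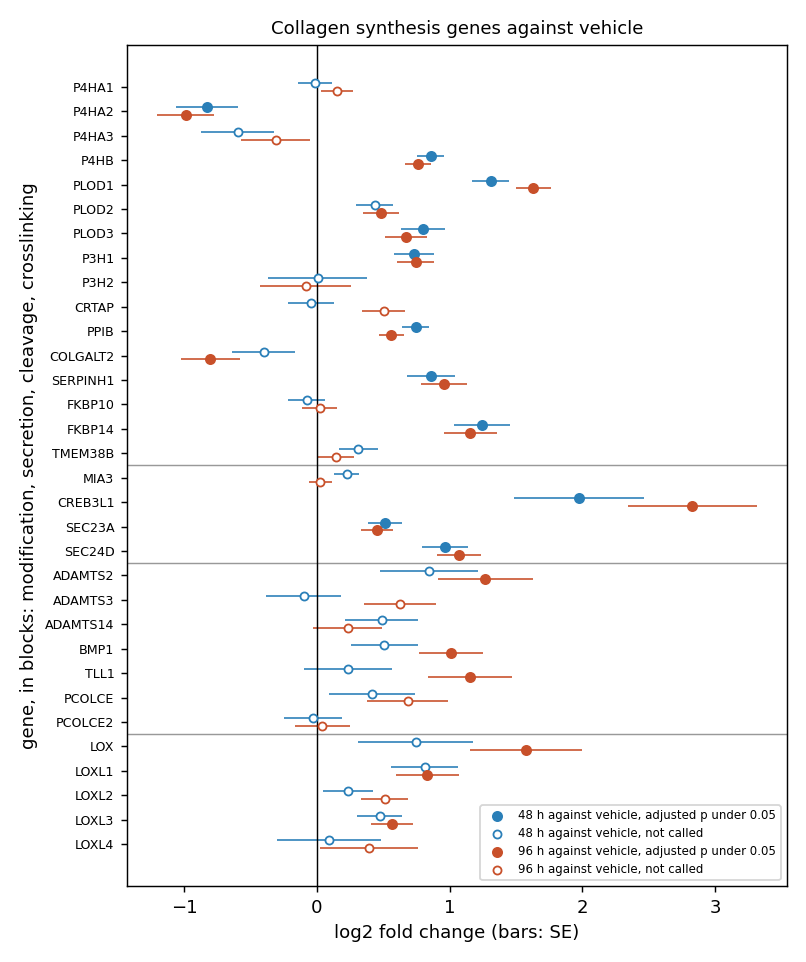
Log2 fold change (x axis, bars are SE) of 32 collagen synthesis genes (y axis, in blocks from modification at the top to crosslinking at the bottom) at 48 h (blue) and 96 h (red) against vehicle. Filled points have an adjusted p under 0.05 by edgeR's quasi-likelihood test. In the upper blocks most called genes are filled at both times, and in the lower blocks filled points are red.

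Of 11 listed collagen receptor genes 10 were measured. Among these, 0 were called higher and 2 lower at 48 h, and 2 higher and 0 lower at 96 h. ITGA2 and ITGA10, integrin alpha subunits that bind collagen, fell by 0.83 ± 0.24 and 1.52 ± 0.44 on the log2 scale at 48 h (adjusted p = 0.0453 and 0.0484). MRC2, the endocytic receptor for collagen fragments, rose by log2 1.44 ± 0.34 at 96 h, from 26.4, 54.5 and 49.7 CPM with vehicle to 155, 78.4, 161 and 78.8 CPM (adjusted p = 0.0198). ITGB1, the integrin beta subunit shared by the collagen-binding integrins, rose by 0.39 ± 0.12 at 96 h. These shares, 20% lower at 48 h and 20% higher at 96 h, stand beside 3.21% and 17.2% of all loci. Without any one of TP08, TP09, TP11, TP12, TP15 or TP18, or without both older animals, 0 receptor genes were called lower at 48 h. It was 1 without TP07, TP10 or TP17 and with age as a covariate or block. Without TP07, without TP11, without both older animals or with the age class as a block, 0 were called higher at 96 h, and 1 without TP08, TP09, TP10, TP12, TP15 or TP17.

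Of 11 listed breakdown genes 7 were measured, and MMP1, MMP2, MMP8 and CTSK were not. Of the 7 measured, 1 was called higher at 48 h, and 3 higher and 1 lower at 96 h. These are 14.3%, 42.9% and 14.3% of the list, beside 14.8%, 17.2% and 6.66% of all loci. PEPD, the dipeptidase that releases proline, rose by log2 0.75 ± 0.12 at 48 h and 0.51 ± 0.11 at 96 h. MMP14, a membrane-bound collagenase, measured 59.3, 99.7 and 90.2 CPM with vehicle, 107, 120 and 103 CPM at 48 h, and 237, 138, 266 and 163 CPM at 96 h. MMP14 rose by log2 1.27 ± 0.24 at 96 h (adjusted p = 0.00807). MMP16 rose by 0.62 ± 0.16 at 96 h, and MMP13, a secreted collagenase at 0.456 to 2.1 CPM over all libraries, fell by 1.02 ± 0.31. The count of higher breakdown genes at 96 h was 1 without TP11, with the age class as a block or with upper-quartile scaling, 2 without TP07 and 5 without TP16. The lower call of MMP13 was lost without any one of TP07, TP08, TP09, TP11, TP12, TP15, TP16 or TP17.

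The rule also took in a locus that may not measure its gene. The only locus named COL10A1 is a model with 1 exon on the opposite strand of COL10A1, at 0.776 to 2.94 CPM, and was called in no comparison. Since the strand setting of the counting is not given, whether it holds reads of COL10A1 cannot be told. The other 37 chains were read from models on the strand of the gene. The 3 second loci, of COL13A1, COL4A3 and COL4A6, were opposite-strand models too. A further 5 chains, COL4A5, COL5A1, COL7A1, COL17A1 and COL22A1, were in the table under other names or none and are outside the rule. Of these, COL4A5 was the only one called in any comparison, and COL5A1, the main partner of COL5A2, measured 119, 324 and 197 CPM with vehicle and 877, 294, 725 and 353 at 96 h (log2 1.40 ± 0.46, adjusted p = 0.0634).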

How the data were processed

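Per the labels' protocols, RNA from frozen fragments of the right testis was isolated with Trizol and made into stranded total RNA libraries. The submitters' processing notes name HTSeq 0.6.1p1, edgeR, Cufflinks 2.2.1, the aligners Bowtie2 2.2.8 and TopHat2 2.1.1, the trimmer cutadapt 1.9.1 and the build rheMac8. The strand setting of the counting is not given in the sources used here. The authors deposited raw counts for 26813 loci, with log2 fold changes and p-values (FDR) of their edgeR comparisons, and positions of transcript models. The CPM columns deposited by the authors were counts scaled to the library, per the file headers, and were not used.

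Counts were fitted with edgeR 4.0.16 (TMM, robust quasi-likelihood, all 10 libraries, group means, common biological coefficient of variation 0.259), with Benjamini-Hochberg adjustment over all loci at 0.05. The steps were tested on simulated data. Ratios of chains were compared with exact permutation tests (SciPy 1.17.1). Libraries of a group differed beyond sampling noise, so none was counted as a repeat. Nothing in the labels ties animals across groups. Opposite-strand loci were recognised by the class code of the models, and levels per kb use the merged exon length. The genes named are every chain called, the 4 most abundant per kb of each class, 8 chains of types I, III, IV and VI, and up to 6 called genes per companion list and comparison; others named as values were chosen after their values were seen. The members and lists were chosen with earlier results of these data known. Alternatives were RLE and upper-quartile scaling, DESeq2 1.42.0, exactTest, a mean count of at least 50, only the groups compared, age as a covariate or block, omission of animals over 20 months, summed loci and omission of each library.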

Additional observations from a re-analysis of the deposited data

Results flagged for a closer look

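COL9A2 differed between the 2 treated groups themselves: the log2 difference of 96 h from 48 h was -1.075 ± 0.205 (SE, adjusted p = 0.036, edgeR's quasi-likelihood test), with all 4 libraries at 96 h below all 3 at 48 h. COL9A2 was the only collagen chain gene for which that difference passed the test. The adjusted p ranged from 0.000126 to 0.208 over 20 other settings, and the call was lost without any one of TP08, TP10, TP12, TP11, TP15, TP17 or TP18. In the authors' deposited table, 2 chains are higher at 96 h than at 48 h with an FDR under 0.05, COL3A1 (0.047) and COL4A6 (0.0103). Another 2 are lower, COL9A2 (0.000628) and COL13A1 (0.0281).

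The second locus named COL4A6 showed signal that belongs to no comparison of chains. It lies inside the COL4A6 span on the opposite strand (chrX:102246140-102275441, + strand, 2 exons). It measured 0.0661, 0.439 and 0.194 CPM with vehicle, 1.32, 2.24 and 2.75 CPM at 48 h, and 4.12, 1.48, 4.81 and 2.55 CPM at 96 h. The log2 difference from vehicle was 3.194 ± 0.615 at 48 h (adjusted p = 0.00799) and 3.808 ± 0.601 at 96 h (adjusted p = 0.00261). Over the same libraries COL4A6 itself was not called, with log2 differences of -0.51 ± 0.46 and 0.89 ± 0.43. Since the strand setting of the counting is not given, reads of the 2 strands cannot be told apart with certainty.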

How the results depend on the processing

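The labels share no replicate numbers between groups, so animals were blocked by age class only. Against 2 higher and 1 lower chains at 48 h, 8 and 8 at 96 h, and 0 and 1 between the times, other settings gave these counts. At 48 h, 3 were lower under DESeq2, exactTest or the age covariate, and 2 under a mean count of at least 50, only the groups compared or upper-quartile scaling. At 48 h, 1 was higher with age class as the block, 0 without both animals over 20 months, and 0 with upper-quartile scaling. At 96 h, 5 were higher under the age covariate or only the groups compared. With the age class as a block, or without both animals over 20 months, 0 were higher and 4 lower at 96 h. Between the times, DESeq2 gave 4 higher and 2 lower, exactTest 1 and 2, and a mean count of at least 50 gave 2 lower, while 0 were lower with age as covariate or block or without the older animals. Without single libraries, the counts were 0 to 2 higher and 1 to 2 lower at 48 h, 1 to 9 higher and 3 to 8 lower at 96 h, and 0 to 1 in each direction between the times. The causes were not tested. Only the fits without single libraries, without the older animals or of only the groups compared hold fewer animals.

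All 8 higher and all 8 lower chains at 96 h kept their direction under each setting. The median log2 difference ranged from -0.35 to -0.02 at 48 h, from -0.11 to 0.44 at 96 h and from -0.10 to 0.35 between the times. Upper-quartile scaling moved the median of all loci with a symbol from 0.079 to -0.047 at 48 h, where 1175 were then higher and 848 lower against 1955 and 424, and from 0.082 to -0.067 at 96 h, with 1343 higher and 1811 lower against 2272 and 879. Changes of sign occurred only in differences that were not called. For COL4A1, the age class as a block gave -0.11 at 96 h. For COL4A2, DESeq2 and RLE scaling gave 0.0 at 96 h and the age class as a block gave -0.17 between the times. Without single libraries, the 48 h values ranged from -0.29 to 0.13 for COL15A1, -0.38 to 0.04 for COL4A2, -0.55 to 0.22 for COL6A1 and -0.63 to 0.12 for COL6A2. COL4A2 ranged from -0.16 to 0.21 at 96 h. Between the times, COL18A1 ranged from -0.08 to 0.21, COL24A1 from -0.24 to 0.04, COL4A1 from -0.24 to 0.30 and COL5A3 from -0.24 to 0.33. Adding the 5 chains outside the rule, or leaving out COL10A1, chosen after seeing the data, moved no count by over 1.5 times.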
